A study of Mus musculus with 8 samples.

Results

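Genes of the interferon response were followed in organoids of mouse embryonic hindstomach epithelium that carry an active form of YAP. The set holds the interferon receptor chains, the STAT and IRF transcription factors and the families of genes that interferon induces, picked out by a rule on gene symbols that uses no measured value, though the rule was written with earlier results of these data known. It matched 94 of the 56691 rows of the count table, and 62 of the 94 had enough reads to be tested. The organoids, cultures of epithelium grown in 3 dimensions, were started from hindstomach epithelium of embryonic day 18.5, kept in growth medium for 5 days and moved to differentiation medium for 7 more. Bulk RNA sequencing covered 4 libraries of genotype Shh-Cre;YAP5SA (YAP5SA) and 4 of genotype Shh-Cre (Ctrl), so that both groups carry the Cre driven from the Shh locus, which is active in endoderm. YAP5SA carries changes at the sites where the Hippo kinases would otherwise phosphorylate and restrain YAP, a transcriptional coactivator. The labels name neither the strain of the mice nor the embryos, litters or days behind the replicates, so every p-value measures only the spread between these samples.

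Interferons act through receptors that activate JAK kinases, which phosphorylate STAT proteins. Type I and type III interferons lead to ISGF3, a complex that holds STAT2 and IRF9 and binds the interferon-stimulated response element (ISRE), while type II interferon leads to STAT dimers that bind the gamma-activated site (GAS). The induced genes encode sensors of foreign RNA and DNA, antiviral effectors and feedback inhibitors, and epithelia of the gut are known to respond to type III interferon in particular.

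Total counts were 17387372 to 21039926 per YAP5SA library and 18225648 to 25841256 per Ctrl library. Yap1 had 138 to 142 CPM (read counts scaled to the size of the library) in YAP5SA libraries and 108 to 133 CPM in Ctrl libraries, and the YAP target Ccn1 had 406 to 481 CPM in YAP5SA against 29.1 to 36.4 CPM in Ctrl. The groups also differed in sex-linked RNA. Xist was at 0 to 0.416 CPM in YAP5SA and 476 to 633 CPM in Ctrl, and the Y-linked Ddx3y was at 104 to 132 CPM in YAP5SA with 0 counts in Ctrl, so that genotype and these transcripts cannot be told apart in any result below. Epithelial markers were abundant in both groups. The list of 9 genes summed to 12900 to 15200 CPM in YAP5SA and 19000 to 20200 CPM in Ctrl. In YAP5SA 5 of the 9 were higher, 3 lower (Cdh1, Krt8 and Krt19) and 1 not called. Epcam, among those higher, was at 561 to 619 CPM in YAP5SA and 268 to 327 CPM in Ctrl. Gastric surface markers, 7 genes, summed to 4530 to 6310 CPM in YAP5SA and 41300 to 66600 CPM in Ctrl. As these are bulk samples, fewer cells of a type and less RNA per cell cannot be told apart.

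Cells of the immune system are a rich source of interferon-induced RNA, so their markers are given here. The 18 myeloid markers summed to 137 to 147 CPM in YAP5SA and 54.9 to 79.3 CPM in Ctrl. Most of the YAP5SA sum came from Cd14, Cd68 and Csf1r, at means of 69.5, 38.2 and 32.0 CPM. In YAP5SA 4 of 6 tested were higher (against 33.1% of all genes), namely Csf1r, Cd68, Cd14 and Lyz2. Csf1r and Lyz2 had at most 0.417 and 0.113 CPM in any Ctrl library, under the cutoff of 0.535 CPM for testing. Both were therefore tested only through their YAP5SA libraries. The other 2 tested, Mrc1 and Laptm5, were not called, at log2 fold changes of -0.59 and -0.37. Among the defining myeloid genes, Adgre1, Tyrobp and C1qc had 0 counts in every library, Spi1 had 1 count in YAP5SA and 0 in Ctrl, Itgam had 53 counts in YAP5SA and 5 in Ctrl with every YAP5SA library above every Ctrl library, and the pan-leukocyte gene Ptprc had 3 counts in YAP5SA and 15 in Ctrl. The 12 lymphoid markers summed to at most 0.0456 CPM in any YAP5SA library and 0.282 CPM in any Ctrl library. Markers of mesenchyme reached at most 1.33 CPM in YAP5SA and 1.79 CPM in Ctrl as a sum of 11 genes, and those of endothelium 0.73 and 1.81 CPM as a sum of 7. The neural and glial list of 7 genes summed to 2.18 to 3.33 CPM in YAP5SA and 4.92 to 6.15 CPM in Ctrl, with Sox10 and Elavl4 among those at 0.

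Promoter sequence was examined for the ISRE, spelled GAAA, any 2 bases and GAAA, and the GAS, spelled TTC, any 3 bases and GAA, on both strands; 2 of the ISRE matches, in Bst2 and Ifitm3, overlap a GAS match. Each RefSeq promoter window (GRCm38.p6) runs from 250 bases before to 50 after a transcription start, and 71 of the 94 members had at least 1. An ISRE match was in the windows of 35 of the 71 members (49.3%), against 3.99% of 27025 genes. A GAS match was in 17 (23.9%), against 9.55% of those genes. A match describes these letters and is not evidence of a bound site. The windows below are those of the 6 called members with an ISRE match and the largest fold changes. They show what this element looks like in genes that rose; Ifit2, Ifi44 and Oasl1, which moved more than some of these, have windows with no ISRE match. Each is 70 bases, 5′ to 3′ on the gene's strand, with every ISRE match in capitals; a match that starts with TTTC is read from the other strand.
Rsad2: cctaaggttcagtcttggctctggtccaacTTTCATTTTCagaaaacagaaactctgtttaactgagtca
Ifit1: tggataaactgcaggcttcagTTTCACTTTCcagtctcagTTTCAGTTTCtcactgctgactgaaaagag
Ifit3: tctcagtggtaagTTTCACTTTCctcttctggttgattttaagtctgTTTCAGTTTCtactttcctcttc
Ifit3b: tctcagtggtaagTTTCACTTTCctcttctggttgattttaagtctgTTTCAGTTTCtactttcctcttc
Isg15: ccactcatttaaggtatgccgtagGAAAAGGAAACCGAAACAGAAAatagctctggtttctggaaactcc
Ifitm2: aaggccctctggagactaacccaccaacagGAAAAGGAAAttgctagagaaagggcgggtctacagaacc

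On GRCm38.p6 these windows lie at chr12:26456533-26456602 on the minus strand for Rsad2, chr19:34640764-34640833 on the plus strand for Ifit1, chr19:34583360-34583429 on the plus strand for Ifit3 and chr19:34607756-34607825 on the plus strand for Ifit3b. Those of Isg15 and Ifitm2 lie on the minus strand at chr4:156200851-156200920 and chr7:140955968-140956037. Ifit3 and Ifit3b were identical over all 70 bases, and as their genes are near copies, reads could have been split between them. Isg15 has 3 overlapping matches, which run from position -78 to -57 relative to the start. Ifit1 has 2 matches, at -104 to -95 and at -85 to -76, and the same bases are the 2 matches of its neighbour Ifit1bl2, read from that gene's start.

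Matches were found in members of each kind of call, in unequal shares that were not tested. Of members called higher in YAP5SA, 11 of 21 with a window held an ISRE match, as did 3 of 11 called lower, 9 of 17 not called and 12 of 22 not tested. Those called lower with a match were Gbp2b, Stat2 and Irf2, with matches at -137 to -128 in Gbp2b, -222 to -213 in Stat2 and -241 to -232 in Irf2. The GAS was matched in 8 of 21 members called higher, 1 of 11 called lower, 5 of 17 not called and 3 of 22 not tested. Within 150 bases before the start, an ISRE match was in 9 of 21 members called higher (42.9%) and 1 of 11 called lower (9.09%). It was also in 8 of 17 not called (47.1%) and 10 of 22 not tested (45.5%), against 1.85% of all genes. A GAS match in that window was in 4 of 21 called higher, 0 of 11 called lower, 4 of 17 not called and 2 of 22 not tested. The share over all genes was 4.77%. No window was at hand for 23 members, among them Mx1, Ifi27, Ifi204, Usp18 and Rtp4. For Ifit2, the member with the largest fold change, the window held a GAS match at -241 to -233, and these ISRE letters were not in it. In the members of the Ifi200 family Ifi203 and Ifi211 the match lay close to the start, at -35 to -26 in Ifi203 and -37 to -28 in Ifi211.

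**Figure D1:**
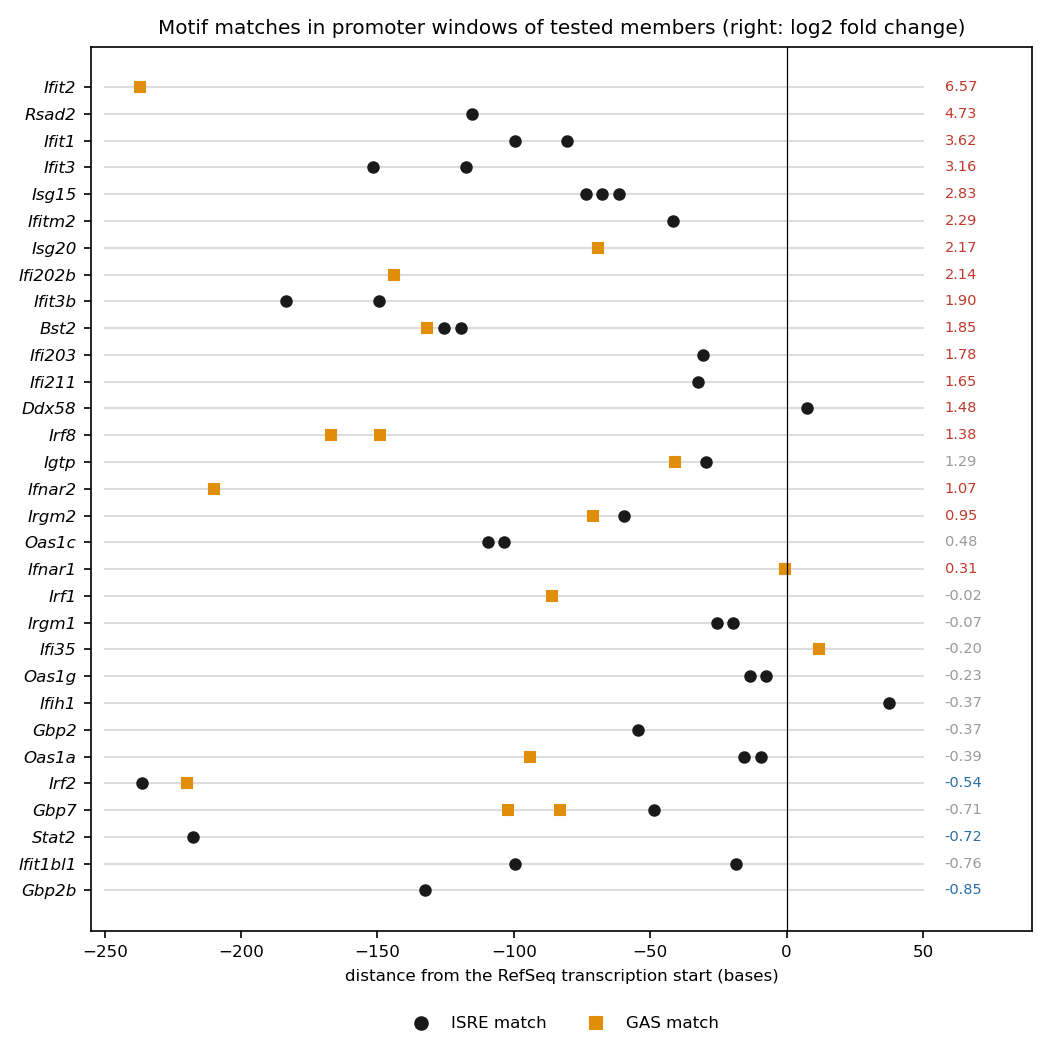
Positions of ISRE matches (black circles) and GAS matches (orange squares) in the RefSeq promoter windows of tested members with a match, in bases from the transcription start; the value at the right is the log2 fold change, YAP5SA over Ctrl, red where higher and blue where lower in YAP5SA at an adjusted p under 0.05. Genes with a match run from Ifit2 at 6.57 to Gbp2b at -0.85; Oasl1, Ifi30, Ifi47 and Ifngr2, which lie lower, have windows with no match and are not drawn.

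Across the set, genes moved in both directions and the share called was close to that of all genes. By edgeR's quasi-likelihood test with Benjamini-Hochberg adjustment over all 13812 genes tested, 41 of the 62 tested members (66.1%) differed between the groups, against 64.5% of all genes. In YAP5SA 26 members were higher (41.9%, against 33.1% of all genes) and 15 lower (24.2%, against 31.3%), and 21 were not called. More than 2-fold changes were higher for 21 members (33.9%, against 14.0% of all genes) and lower for 6 (9.68%, against 11.5%). The median log2 fold change of tested members was 0.25, and that of all genes tested was 0.02. The 4 libraries of 1 group lay wholly above those of the other in 37 members (59.7%, against 58.7% of all genes), 24 with YAP5SA above and 13 with YAP5SA below. Of the tested members, 6 (Rsad2, Ifi44, Irf8, Ifit2, Ifit3b and Gbp4) passed the count filter in YAP5SA libraries only. Ifit1, Ifit3, Isg15, Irf5, Ifi211 and Ifi27, also called higher, were over its cutoff in all 4 YAP5SA libraries but in only 1 to 3 Ctrl libraries. The shares of higher and separated members, and the calls of these genes, are therefore in part set by that filter.

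**Figure D2:**
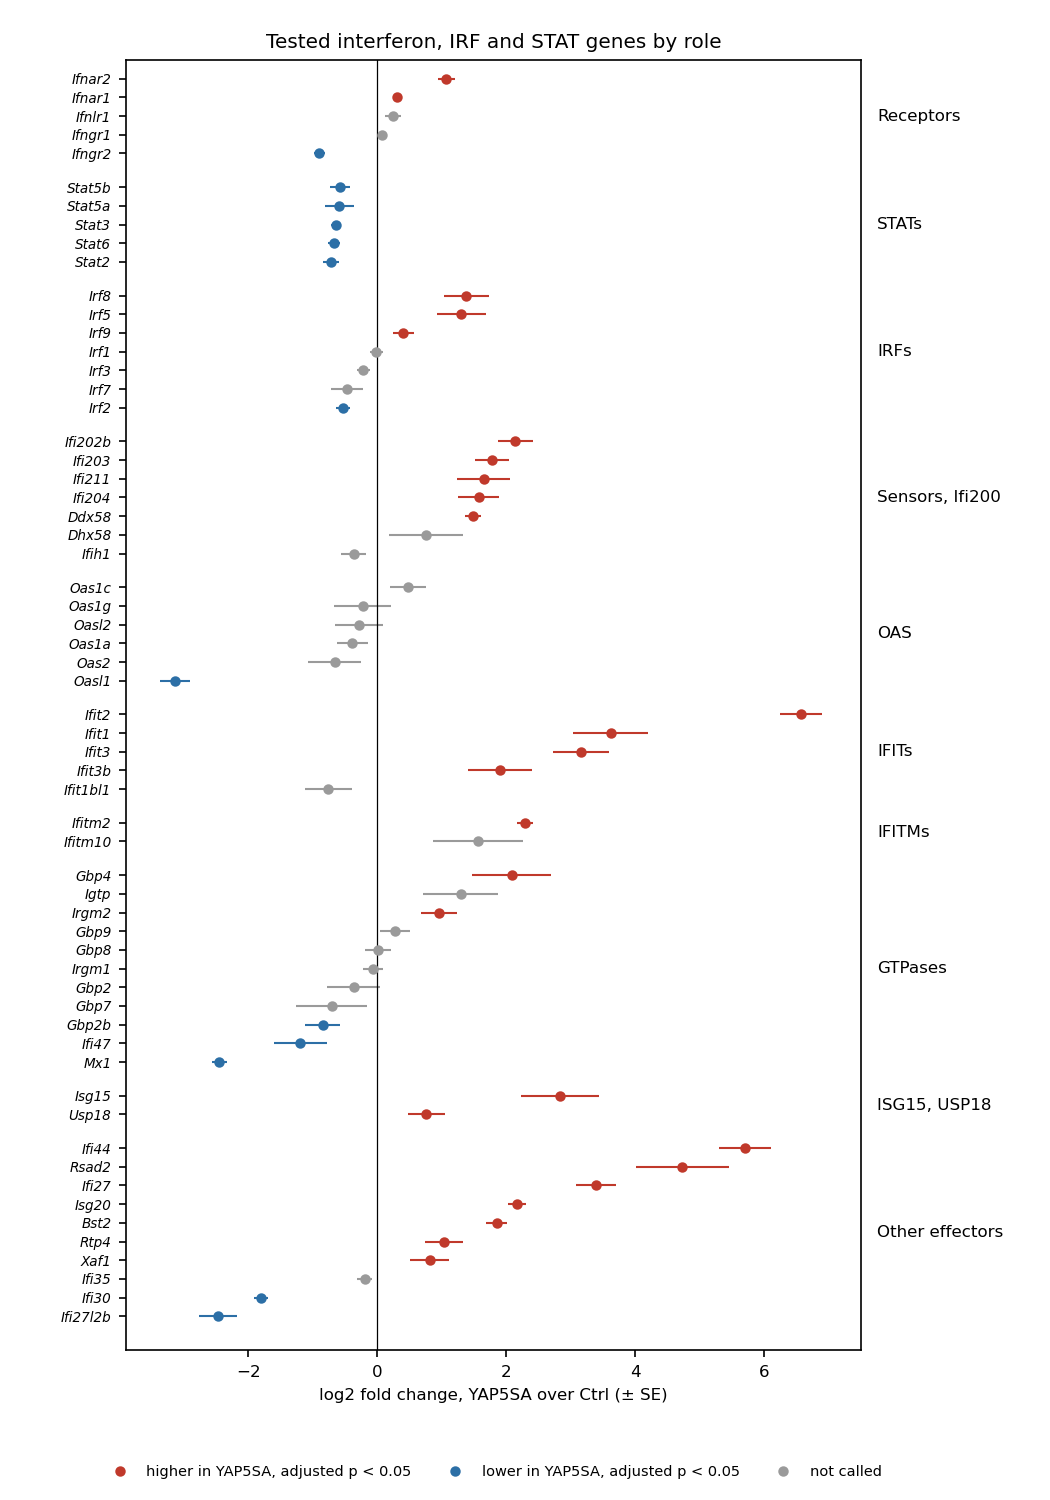
Log2 fold change, YAP5SA over Ctrl, with its standard error, for 60 of the 62 tested members, grouped by role; red points were higher and blue points lower in YAP5SA at an edgeR adjusted p under 0.05, and grey points were not called. All STATs shown lie left of 0, while 4 of 5 IFITs lie right of it (80% called higher, against 33.1% of all genes), from 1.90 for Ifit3b to 6.57 for Ifit2. Of these, Ifit2 and Ifit3b passed the count filter in YAP5SA libraries only, and Ifit1 and Ifit3 had 1 Ctrl library over its cutoff.

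Of 21 interferon ligand genes none had enough reads to be tested. Counts were 0 in every library for 15 of them, including Ifng, Ifnl2 and Ifnl3, where the floor of 3 counts that a count of 0 allows corresponds to 0.143 to 0.172 CPM, here without TMM scaling, in YAP5SA libraries and 0.116 to 0.165 in Ctrl libraries. Ifne, an epithelial type I interferon, had the most counts, 6 over the YAP5SA libraries and 30 over the Ctrl libraries. Ifnb1, the type I interferon that many cells make first on infection, had 0 counts in YAP5SA and 3 in Ctrl.

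Receptor chains of type I interferon were higher in YAP5SA and a chain of the type II receptor was lower. Ifnar2, the chain that binds type I interferon most tightly, had 18.6, 20.6, 17.1 and 17.8 CPM in YAP5SA replicates 1 to 4 and 10.0, 7.17, 8.51 and 9.55 CPM in Ctrl replicates 1 to 4. Every YAP5SA library exceeded every Ctrl library, and the log2 fold change was 1.07 (SE 0.13, adjusted p = 5.71e-06). Its partner Ifnar1 had 51.5, 57.2, 53.8 and 53.3 CPM in YAP5SA and 44.4, 44.5, 44.3 and 41.0 CPM in Ctrl. Those groups did not overlap either, at a log2 fold change of 0.31 (SE 0.07, adjusted p = 0.00229). Ifngr2, the signalling chain of the interferon gamma receptor, had 58.9, 54.5, 65.8 and 64.7 CPM in YAP5SA and 99.6, 118, 116 and 122 CPM in Ctrl. It fell by 0.90 on the log2 scale (SE 0.09, adjusted p = 6.42e-07), with all YAP5SA libraries below all Ctrl libraries. The ligand-binding chain Ifngr1 was not called, at 324 ± 19.4 CPM in YAP5SA and 310 ± 20.7 CPM in Ctrl (SD, n = 4 each; log2 fold change 0.07, edgeR adjusted p = 0.453). Ifnlr1, the chain specific to type III interferon and typical of epithelia, was at 44.6 ± 5.46 CPM in YAP5SA and 37.9 ± 5.33 CPM in Ctrl (SD, n = 4 each; log2 fold change 0.24, edgeR adjusted p = 0.088). Under library size scaling, which shifts the median of all genes to 0.19, Ifngr1 and Ifnlr1 were called higher as well, at 0.24 and 0.41, and Ifnlr1 was also called under upper quartile scaling (0.29, adjusted p = 0.0321). Ifnlr1 was called higher too with the replicate number as a block (0.24, adjusted p = 0.0307).

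STAT transcription factors, which carry the signal from receptor to nucleus, were lower in YAP5SA in all 6 tested genes, against 31.3% of all genes lower. Stat2, a part of ISGF3, had 19.9, 15, 19.3 and 15.5 CPM in YAP5SA and 28.3, 33.5, 29.8 and 23.2 CPM in Ctrl. The highest YAP5SA library lay below the lowest Ctrl library, Ctrl replicate 4, at a log2 fold change of -0.72 (SE 0.13, adjusted p = 0.000265). Stat6, best known from cytokines of allergic responses, was at 79.6 ± 3.65 CPM in YAP5SA and 126 ± 14.9 CPM in Ctrl (SD, n = 4 each), and its log2 fold change was -0.67. Stat3, activated by many cytokine and growth factor receptors, was at 73.6 ± 2.80 CPM in YAP5SA and 115 ± 7.97 CPM in Ctrl (-0.65, SE 0.07). The groups did not overlap for either gene. Stat5b was at -0.58 (SE 0.15, adjusted p = 0.00355) and its near copy Stat5a at -0.59 (SE 0.23, adjusted p = 0.0391). The Stat5a call ended under library size scaling (-0.42, adjusted p = 0.135), upper quartile scaling (-0.54, adjusted p = 0.0605) and no count filter (-0.59, adjusted p = 0.0628) and without YAP5SA replicate 3 (-0.47, adjusted p = 0.107), YAP5SA replicate 4 (-0.53, adjusted p = 0.0801) or Ctrl replicate 3 (-0.49, adjusted p = 0.12). Stat4, a lymphoid gene, had 2 counts in YAP5SA and 4 in Ctrl.

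IRF factors, which bind ISRE-like sequences, were higher in 3 of 8 tested (37.5%, against 33.1% of all genes), lower in 2 (25%, against 31.3%) and not called in 3, shares close to those of all genes. Irf9, the DNA-binding part of ISGF3, had 16.4, 20.4, 16.4 and 17.8 CPM in YAP5SA and 12.1, 16.4, 15.8 and 9.50 CPM in Ctrl. The groups overlapped, since Ctrl replicate 2 reached the lower YAP5SA libraries. Its log2 fold change was 0.40 (SE 0.16, adjusted p = 0.0429), and the call ended under RLE scaling (0.38, adjusted p = 0.0518), without any 1 of the 4 YAP5SA libraries (adjusted p 0.0534 to 0.129) and without Ctrl replicate 1 (adjusted p = 0.121) or 4 (adjusted p = 0.149). Irf2, an IRF that competes with Irf1 at shared sites, had 28.8, 27.5, 28.4 and 27.9 CPM in YAP5SA and 33.2, 45.4, 38.6 and 46.4 CPM in Ctrl. It was lower in every YAP5SA library (-0.54, SE 0.11, adjusted p = 0.000485).

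Irf5 and Irf8, best known from myeloid cells, were scarce and higher in YAP5SA. Irf8 passed the count filter in YAP5SA libraries only, and Irf5 had 2 Ctrl libraries over its cutoff. Irf5 had 1.27, 1.25, 1.44 and 1.82 CPM in YAP5SA and 0.564, 0.355, 0.375 and 1.06 CPM in Ctrl (log2 fold change 1.30, SE 0.38, adjusted p = 0.00749). Irf8 had 1.23, 1.20, 1.60 and 0.775 CPM in YAP5SA and 0.451, 0.533, 0.5 and 0.335 CPM in Ctrl (1.38, SE 0.35, adjusted p = 0.0035). The groups did not overlap for either gene. Csf1r, Cd68, Cd14 and Lyz2 moved in the same direction, as given above, while Mrc1 and Laptm5 were not called and Ptprc had fewer counts in YAP5SA. Whether myeloid cells have a part in these values was not tested. Irf3 and Irf7, which switch on interferon genes after a sensor has fired, were not called, with log2 fold changes of -0.22 (adjusted p = 0.0571) and -0.47 (adjusted p = 0.112). Irf3 was called lower with all libraries by DESeq2 (-0.24, adjusted p = 0.0456) and under RLE scaling (-0.24, adjusted p = 0.0475), and also without YAP5SA replicate 4 (-0.29, adjusted p = 0.0171), Ctrl replicate 1 (-0.28, adjusted p = 0.0304) or Ctrl replicate 2 (-0.27, adjusted p = 0.0387), and Irf7 with no count filter (-0.47, adjusted p = 0.0493) and without Ctrl replicate 1 (-0.66, adjusted p = 0.0253) or Ctrl replicate 4 (-0.62, adjusted p = 0.0465). A replicate block called Irf3 lower too (-0.23, adjusted p = 0.0302). Irf1, an activator induced most strongly by interferon gamma, was at 32.4 ± 1.98 CPM in YAP5SA and 32.9 ± 4.43 CPM in Ctrl (SD, n = 4 each; log2 fold change -0.02, edgeR adjusted p = 0.859). Irf4, a factor of lymphocytes, had 4 counts in YAP5SA, all in replicate 1, and 0 in Ctrl.

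**Figure D3:**
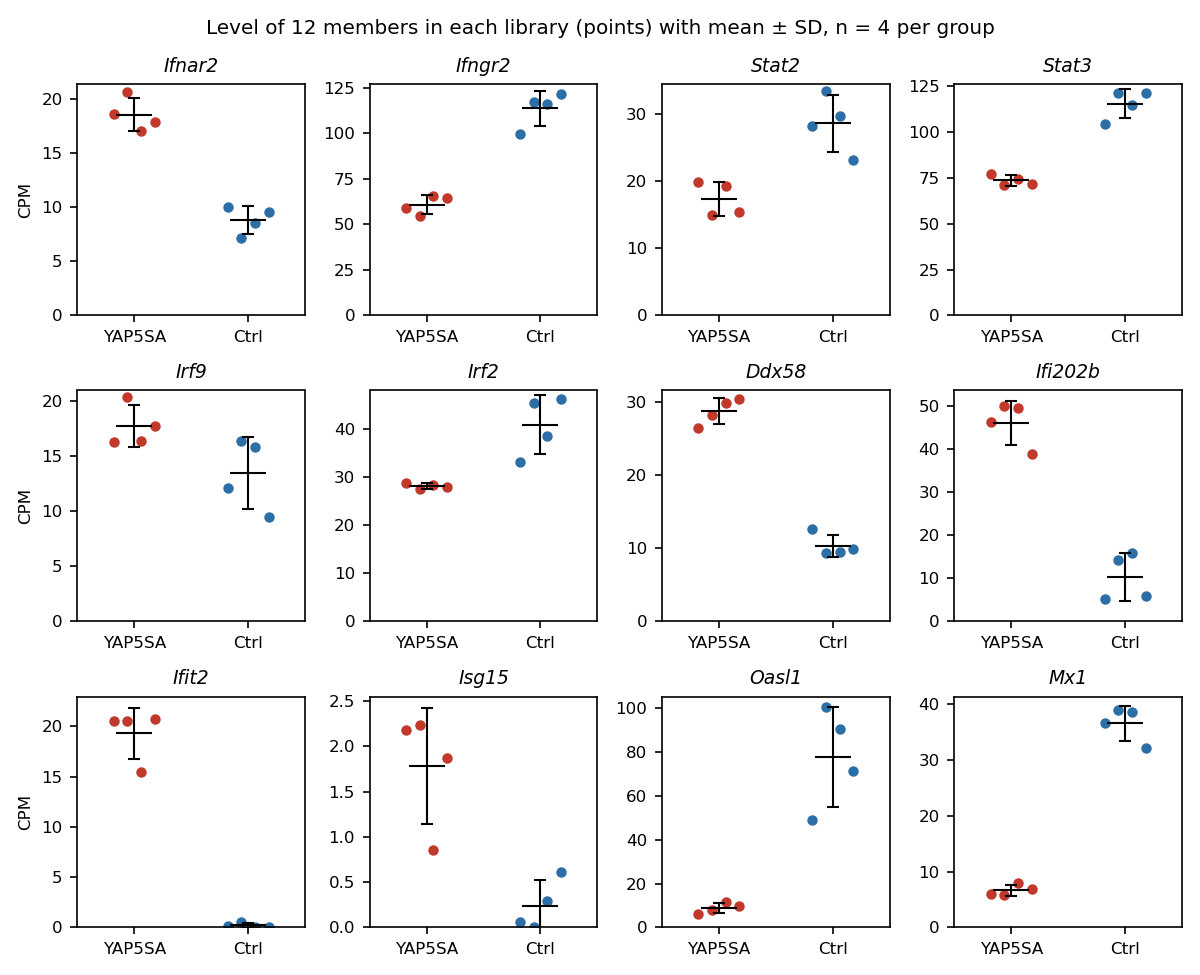
CPM of 12 members in each library (points), with the mean and SD of 4 libraries per group (bars), YAP5SA left and Ctrl right; each axis starts at 0. Irf9 is the only panel of the 12 in which the points of the groups overlap.

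Members grouped as sensors of RNA and DNA were higher in YAP5SA in 5 of 7 tested (71.4%, against 33.1% of all genes). None was lower (against 31.3% of all genes). The 5 were Ddx58 and, from the Ifi200 cluster of similar genes, Ifi202b, Ifi203, Ifi204 and Ifi211. Ddx58, which encodes the RNA sensor RIG-I, had 26.5, 28.2, 29.9 and 30.4 CPM in YAP5SA and 12.6, 9.30, 9.51 and 9.94 CPM in Ctrl. The groups were far apart, at a log2 fold change of 1.48 (SE 0.12, adjusted p = 7.95e-08). The other RNA sensors of its family were not called. Ifih1, which encodes MDA5, was at 11.4 ± 3.18 CPM in YAP5SA and 14.7 ± 2.77 CPM in Ctrl (SD, n = 4 each; log2 fold change -0.37, edgeR adjusted p = 0.111), and was called lower with no count filter (-0.37, adjusted p = 0.0294) and without YAP5SA replicate 3 (-0.53, adjusted p = 0.0315) or Ctrl replicate 4 (-0.49, adjusted p = 0.0405). With a replicate block Ifih1 was also called lower (-0.38, adjusted p = 0.0201). Dhx58, which encodes LGP2, a regulator of RIG-I and MDA5, was at 0.75 (adjusted p = 0.266). Zbp1, a sensor of Z-form nucleic acid, had 2 counts in YAP5SA and 0 in Ctrl.

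The Ifi200 family of mouse DNA-binding proteins, a cluster of similar genes known to vary between inbred strains, was higher in all 4 tested members, against 33.1% of all genes. Ifi202b had 46.3, 49.95, 49.5 and 38.8 CPM in YAP5SA and 5.30, 14.2, 16 and 5.98 CPM in Ctrl. The Ctrl libraries fell into a lower pair, replicates 1 and 4, and a higher pair, and all lay below YAP5SA (log2 fold change 2.14, SE 0.27, adjusted p = 1.04e-05). Ifi203 had 17.8, 20.4, 23.6 and 13.3 CPM in YAP5SA and 3.05, 7.17, 7.63 and 3.80 CPM in Ctrl, with the same lower pair (1.78, SE 0.26, adjusted p = 3.65e-05). Ifi204 and Ifi211 were at 1.57 (SE 0.32) and 1.65 (SE 0.41). Reads could have been split between these similar genes. Ifi209 had 24 counts in YAP5SA and 8 in Ctrl, Ifi205 had 5 and 2, and Ifi206, Ifi207 and Ifi214 had 1 count each, in Ctrl for Ifi206 and in YAP5SA for the other two. Ifi208 and Ifi213 had 0.

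IFIT genes, whose proteins bind foreign RNA and block its translation, held the largest rise of the set. Ifit2 had 20.5, 20.6, 15.5 and 20.8 CPM in YAP5SA and 0.169, 0.533, 0.0834 and 0.0559 CPM in Ctrl. Its counts were 291 to 455 in YAP5SA libraries and 1 to 9 in Ctrl libraries, and the log2 fold change was 6.57 (SE 0.32, adjusted p = 5.78e-10), or 7.48 without Ctrl replicate 2. Ifit1, which recognises RNA that lacks the methyl mark of host caps, had 2.27, 6.40, 2.88 and 2.55 CPM in YAP5SA and 0.395, 0.652, 0.125 and 0 CPM in Ctrl. Replicate 2 was the highest of both groups, and the log2 fold change was 3.62 (SE 0.58, adjusted p = 8.47e-05), or 4.31 without Ctrl replicate 2. Ifit3, a partner of Ifit1 and Ifit2, had 3.27, 4.32, 5.01 and 2.37 CPM in YAP5SA and 0.0564, 0.296, 0.667 and 0.559 CPM in Ctrl (3.16, SE 0.43, adjusted p = 1.91e-05). Its copy Ifit3b was at 1.90 (SE 0.50, adjusted p = 0.00424). All YAP5SA libraries exceeded all Ctrl libraries for these genes. They are 4 of 5 tested IFITs (80% called higher, against 33.1% of all genes). Ifit2 and Ifit3b passed the count filter in YAP5SA libraries only, and Ifit1 and Ifit3 had 1 Ctrl library over its cutoff.

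Other genes of the IFIT cluster on the same chromosome did not share this pattern or were too scarce to test. Ifit1bl1 had 11.4, 24.1, 24.5 and 18.1 CPM in YAP5SA and 14.6, 63.8, 32.3 and 21.9 CPM in Ctrl. The spread within Ctrl was wide, and its log2 fold change of -0.76 (SE 0.36) was not called (adjusted p = 0.0745), though it was with no count filter (-0.77, adjusted p = 3.66e-10) and without Ctrl replicate 1 (-1.04, adjusted p = 0.0088) or Ctrl replicate 4 (-0.94, adjusted p = 0.0361). Ifit1bl1 was called lower with a replicate block as well (-0.62, adjusted p = 0.00141). Ifit1bl2, which shares promoter sequence with Ifit1, had 61 counts in YAP5SA and 0 in Ctrl, at least 21.4-fold higher against a floor of 3 counts over the group. As the strand setting of the counting is not known, reads of overlapping neighbours in this cluster cannot be told apart.

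ISG15, a ubiquitin-like protein joined to other proteins during the response, and its protease were both higher. Isg15 had 2.18, 2.24, 0.853 and 1.87 CPM in YAP5SA and 0.0564, 0, 0.292 and 0.614 CPM in Ctrl, that is 16 to 48 counts in YAP5SA libraries and 0 to 11 in Ctrl libraries. The groups did not overlap (log2 fold change 2.83, SE 0.60, adjusted p = 0.00084; 3.67 without Ctrl replicate 4). Usp18, the protease that removes ISG15 and a feedback inhibitor at IFNAR2, had 1.14, 1.41, 1.39 and 1.60 CPM in YAP5SA and 0.790, 1.01, 0.751 and 0.726 CPM in Ctrl. Each YAP5SA library was higher, at a log2 fold change of 0.76 (SE 0.29, adjusted p = 0.0337). That call ended by DESeq2 (adjusted p = 0.0559), with no count filter (adjusted p = 0.13), with a replicate block (adjusted p = 0.0689), without YAP5SA replicate 2, 3 or 4 (adjusted p 0.064 to 0.0829) and without Ctrl replicate 1, 3 or 4 (adjusted p 0.0722 to 0.092).

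Of 10 further effectors tested, 7 were higher in YAP5SA (70%, against 33.1% of all genes), 2 lower (20%, against 31.3%) and 1 not called. Ifi44 and Rsad2 passed the count filter in YAP5SA libraries only, and Ifi27 had 3 Ctrl libraries over its cutoff. The share called higher is therefore in part set by that filter. Ifi44, a cytoplasmic protein of the antiviral response, had 6.63, 5.67, 5.92 and 4.83 CPM in YAP5SA and 0.226, 0.0592, 0.125 and 0 CPM in Ctrl. Ctrl held 8 counts in all against 472 in YAP5SA, and the log2 fold change was 5.70 (SE 0.40, adjusted p = 2.34e-08). Rsad2, which encodes viperin, an enzyme that makes a chain-terminating nucleotide, had 1.04, 2.50, 1.17 and 1.55 CPM in YAP5SA and 0.226, 0, 0 and 0 CPM in Ctrl. Its 4 Ctrl counts all came from replicate 1. Its log2 fold change was 4.73 (SE 0.72, adjusted p = 5.37e-05), or 7.97 without that library, when Ctrl stands at 0 and the value rests on the prior count. Ifi44l, a relative of Ifi44, had 16 counts in YAP5SA and 0 in Ctrl, at least 5.63-fold higher against a floor of 3 counts over the group.

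Ifi27, Isg20 and Bst2 rose with more reads behind them in Ctrl. Ifi27, a small membrane protein gene, had 16.5, 9.47, 17.5 and 16.5 CPM in YAP5SA and 1.64, 1.84, 1.79 and 0.391 CPM in Ctrl (log2 fold change 3.39, SE 0.31, adjusted p = 4.25e-07). Isg20, a nuclease that degrades viral RNA, had 86.4, 91.6, 69.8 and 69.8 CPM in YAP5SA and 15.6, 20.5, 20.6 and 14 CPM in Ctrl (2.17, SE 0.14, adjusted p = 8.52e-09). Bst2, which encodes tetherin, a protein that holds budding virus at the cell surface, had 23.0, 22.6, 23.4 and 28.4 CPM in YAP5SA and 9.53, 5.92, 6.13 and 5.47 CPM in Ctrl (1.85, SE 0.16, adjusted p = 2.79e-07). The groups were apart for all 3 genes. Rtp4 was at 1.03 (SE 0.29, adjusted p = 0.00625). Xaf1, a partner of the apoptosis inhibitor XIAP, was at 0.81 (SE 0.30, adjusted p = 0.0266), a call that ended without YAP5SA replicate 2 (0.74, adjusted p = 0.0722) or 3 (0.72, adjusted p = 0.0762) and without Ctrl replicate 1 (0.68, adjusted p = 0.074) or 4 (0.55, adjusted p = 0.0625). Ifi35 was not called (-0.20, adjusted p = 0.156). Cmpk2, a nucleotide kinase and neighbour of Rsad2, had 28 counts in YAP5SA and 23 in Ctrl.

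The effectors that fell were Ifi30 and Ifi27l2b. Ifi30, a lysosomal thiol reductase used in antigen processing, had 28.9, 33.7, 35.8 and 31.9 CPM in YAP5SA and 87.7, 121, 119.7 and 124 CPM in Ctrl (log2 fold change -1.80, SE 0.11, adjusted p = 7.21e-09). Ctrl replicate 1 stood below the rest of its group and still far above YAP5SA. Ifi27l2b, a relative of Ifi27, was at 0.918 ± 0.420 CPM in YAP5SA and 5.11 ± 0.516 CPM in Ctrl (SD, n = 4 each), with a log2 fold change of -2.47 (SE 0.29), opposite in sign to that of Ifi27. Its copy Ifi27l2a had 6 counts in YAP5SA and 1 in Ctrl.

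IFITM proteins, which make membranes resist fusion with virus, were represented by few reads apart from Ifitm2. Ifitm2 had 86.8, 99.2, 89.3 and 84.1 CPM in YAP5SA and 24.0, 14.7, 17.6 and 17.3 CPM in Ctrl. It was higher in every YAP5SA library (log2 fold change 2.29, SE 0.13, adjusted p = 2.00e-09). Ifitm10, a distant family member, was at 1.56 (SE 0.70, adjusted p = 0.0643) and was called without Ctrl replicate 2 (2.39, adjusted p = 0.014), among other settings. Ifitm3, the best known antiviral member, had 80 counts in YAP5SA and 20 in Ctrl and was not tested. Ifitm1 had 9 counts in YAP5SA and 0 in Ctrl, Ifitm5 had 4 and 11, and Ifitm6 and Ifitm7 had 0.

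The OAS family, named for enzymes that make the signal that activates RNase L, held the largest fall of the set, in the OAS-like gene Oasl1. Oasl1, known in the mouse as an inhibitor of Irf7 translation, had 6.13, 7.91, 11.8 and 9.62 CPM in YAP5SA and 48.9, 100.5, 90.8 and 71.4 CPM in Ctrl. The lowest Ctrl library was still above every YAP5SA library, and the gene fell by 3.14 on the log2 scale (SE 0.23, adjusted p = 3.09e-08). No other of the 6 tested OAS genes was called, against 64.5% of all genes called. Oas1a was at -0.39 (adjusted p = 0.167), and was called lower without Ctrl replicate 4 (-0.62, adjusted p = 0.00862). Oas2 was at -0.66 (adjusted p = 0.173), Oasl2 at -0.29 (adjusted p = 0.512), Oas1g at -0.23 (adjusted p = 0.664) and Oas1c at 0.48 (adjusted p = 0.151; 0.67 and adjusted p = 0.0373 without YAP5SA replicate 4). Oas1c was also called higher with a replicate block (0.50, adjusted p = 0.0274). The Oas1 genes are near copies of each other, so reads could have been split between them. Oas3 had 34 counts in YAP5SA and 7 in Ctrl, Oas1b had 28 and 27, Oas1d had 0 and 1, and Oas1e, Oas1f and Oas1h had 0.

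Interferon-induced GTPases, which restrict viruses or attack the vacuoles of intracellular microbes, were lower in 3 of 11 tested (27.3%, against 31.3% of all genes), higher in 2 (18.2%, against 33.1%) and not called in 6. Mx1, a dynamin-like antiviral GTPase that is defective in many laboratory strains, had 6.04, 5.78, 7.99 and 6.93 CPM in YAP5SA and 36.6, 39.0, 38.5 and 32.2 CPM in Ctrl. The groups were far apart and each was narrow, and Mx1 fell by 2.45 on the log2 scale (SE 0.12, adjusted p = 7.30e-10). Ifi47, a GTPase of the IRG family, had 0.636, 1.04, 1.39 and 0.547 CPM in YAP5SA and 2.54, 2.55, 2.38 and 0.782 CPM in Ctrl, where replicate 4 lay within the YAP5SA range. It was called lower (-1.20, SE 0.41, adjusted p = 0.0182) but not without YAP5SA replicate 1 (-1.07, adjusted p = 0.0545). Gbp2b was at -0.85 (SE 0.27, adjusted p = 0.0125).

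Gbp4 and Irgm2 rose, and Gbp4 passed the count filter in YAP5SA libraries only. Gbp4, a guanylate-binding protein gene, had 1.23, 0.624, 0.746 and 0.775 CPM in YAP5SA and 0.508, 0.0592, 0.208 and 0 CPM in Ctrl (log2 fold change 2.08, SE 0.61, adjusted p = 0.0082; 2.98 without Ctrl replicate 1). Irgm2, a regulator of the other IRG proteins, was at 2.32 ± 0.503 CPM in YAP5SA and 1.19 ± 0.293 CPM in Ctrl (SD, n = 4 each; log2 fold change 0.95, edgeR adjusted p = 0.00873). Its relative Irgm1 was at 8.52 ± 1.08 CPM in YAP5SA and 8.92 ± 1.45 CPM in Ctrl (SD, n = 4 each) and was not called. Igtp was at 1.29 (SE 0.58, adjusted p = 0.0639), and was called under library size scaling (1.48, adjusted p = 0.0361), with no count filter (1.30, adjusted p = 0.0116) and without YAP5SA replicate 4 (1.55, adjusted p = 0.0296) or Ctrl replicate 3 (2.13, adjusted p = 0.0098). Igtp was called with a replicate block too (1.49, adjusted p = 0.0073). Gbp2, Gbp7, Gbp8 and Gbp9 ranged from -0.71 to 0.27 and were not called. Counts were 19 in YAP5SA and 4 in Ctrl for Mx2, 4 and 28 for Gbp3, 2 and 4 for Gbp5 and 1 and 0 for Gbp6. Gbp10, Gbp11 and Iigp1 had 0 in every library.

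**Figure D4:**
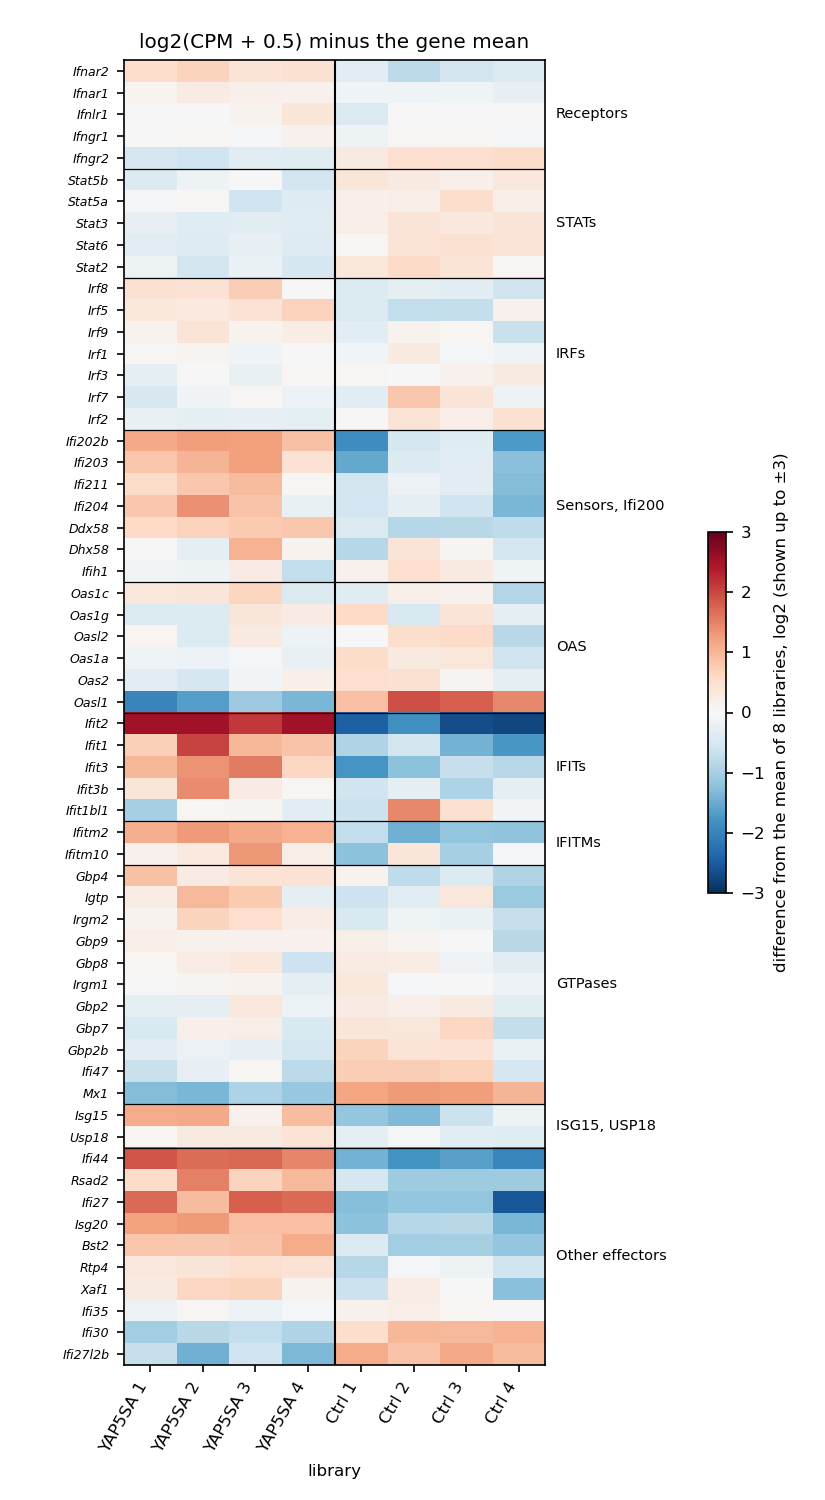
Log2(CPM + 0.5) of 60 of the tested members minus its mean over the 8 libraries, with libraries as columns, YAP5SA left of the line and Ctrl right, and members grouped by role as rows; red is above and blue below the mean, shown up to 3 in either direction. The IFITs, apart from Ifit1bl1, are red in YAP5SA and blue in Ctrl, Mx1 and Oasl1 show the reverse, and Ctrl 4 is bluer than the other Ctrl columns in many rows.

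Within a group the members did not spread over the libraries as all genes did. In Ctrl, replicate 4 was the lowest of the 4 libraries for 33 of 62 members (53.2%), against 26.3% of all genes tested. Replicate 3 was the lowest for 2 members (3.23%, against 19.8%). The highest Ctrl library was replicate 2 for 26 members (41.9%, against 24.6%). Stat2, Irf9, Ifi27, Ifi47 and Oas1a are among the members lowest in Ctrl replicate 4, of which Stat2 fell in YAP5SA and Ifi27 rose. In YAP5SA, replicate 3 was the highest for 29 members (46.8%, against 25.3%) and the lowest for 6 (9.68%, against 23.3%). These shares describe the libraries, and members are not independent of each other. Without Ctrl replicate 4 25 members were called higher and 19 lower.

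**Figure D5:**
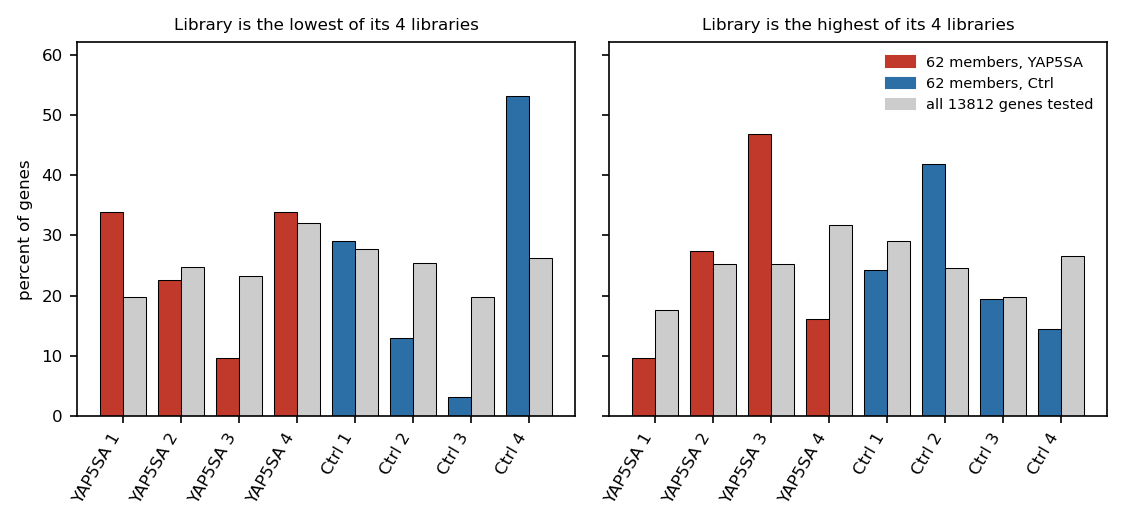
Percent of genes for which a library was the lowest (left panel) or highest (right panel) of the 4 in its group, by CPM, ties left out, for the 62 tested members (coloured, red YAP5SA and blue Ctrl) and all 13812 genes tested (grey). Ctrl 4 is the lowest for 53.2% of members against 26.3% of all genes.

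Levels of different members can be compared only per length, and exon lengths from GENCODE M21 were found for all 94. In YAP5SA the highest mean levels were 137 ± 10.1 CPM per kb of exon for Ifitm2, 114 ± 6.83 for Ifngr1 and 42.7 ± 6.07 for Isg20, followed by Ifi30 at 33.2 ± 2.97 (SD, n = 4). Ifi202b at 27.2 ± 3.03 and Bst2 at 26.9 ± 3.00 CPM per kb did not differ beyond their spread. In Ctrl the order began with Ifi30 at 115 ± 17.4 and Ifngr1 at 109 ± 7.27 CPM per kb, which did not differ beyond their spread. Ifngr2 at 30.2 ± 2.58, Oasl1 at 29.9 ± 8.75, Stat6 at 28.7 ± 3.39 and Ifitm2 at 28.1 ± 6.03 came next and overlapped. Oasl1 was the 22nd of 62 in YAP5SA, at 3.40 ± 0.925 CPM per kb, and the 4th in Ctrl.

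Of the other genes of the pathway, a list of 78 that are not in the set, fewer were higher and more were lower. Of 61 tested, 9 were higher (14.8%, against 33.1% of all genes), 28 lower (45.9%, against 31.3%) and 24 not called, with a median log2 fold change of -0.29. Under library size scaling 15 were called higher. The lowest were the helicase-like gene Ddx60 at -2.27 (SE 0.38, adjusted p = 0.00014), Nmi at -1.76 (SE 0.29), the RNA-editing enzyme gene Adar at -1.49 (SE 0.10, adjusted p = 2.41e-08), and the galectin ligand and galectin genes Lgals3bp at -1.47 and Lgals9 at -1.39. Adar was at 22.0 ± 2.59 CPM in YAP5SA and 61.6 ± 6.19 CPM in Ctrl (SD, n = 4 each).

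The highest were Sting1, the adaptor of cytosolic DNA sensing, at 3.25 (SE 0.48, adjusted p = 4.13e-05), and Samhd1, an enzyme that depletes the nucleotides viruses need, at 2.51 (SE 0.11, adjusted p = 2.54e-10). Samhd1 was at 84.5 ± 5.17 CPM in YAP5SA and 14.8 ± 2.50 CPM in Ctrl (SD, n = 4 each). Trim30a was at 2.44 (SE 0.39). Sting1 and Trim30a had at most 0.415 and 0.533 CPM in any Ctrl library, under the filter's cutoff of 0.535 CPM. Both were therefore tested only through their YAP5SA libraries, which in part sets their calls. The double-stranded RNA receptor gene Tlr3 was at 1.28 (SE 0.10), with 116 ± 6.83 CPM in YAP5SA and 47.8 ± 6.55 CPM in Ctrl (SD, n = 4 each). Herc6, an ISG15 ligase gene of the mouse, was at 1.19 (SE 0.41, adjusted p = 0.0195), and was not called without YAP5SA replicate 2 (adjusted p = 0.0616) or Ctrl replicate 4 (adjusted p = 0.0571). Cxcl10, a chemokine induced by interferon, had 30 counts in YAP5SA and 3 in Ctrl, a ratio of 10.5 (exact 95% counting interval 3.28 to 54.0). Sp110 had 37 counts in YAP5SA and 2 in Ctrl (ratio 19.5, interval 5.03 to 167).

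Of the JAK kinases, Tyk2 and Jak2 were lower, Jak1 was not called and Jak3 was higher. Tyk2, the kinase bound to IFNAR1, fell by 0.88 on the log2 scale (SE 0.10, adjusted p = 4.59e-06), with 21.6 ± 2.94 CPM in YAP5SA and 39.7 ± 1.73 CPM in Ctrl (SD, n = 4 each). Jak2, the partner of IFNGR2, fell by 0.71 (SE 0.09, adjusted p = 1.35e-05). Jak1, shared by all interferon receptors, was at -0.12 (adjusted p = 0.173). Jak3, a kinase of lymphocyte cytokine receptors, rose by 0.73 (SE 0.18, adjusted p = 0.0023). Among the SOCS feedback inhibitors Socs4 was lower at -0.47 (SE 0.08, adjusted p = 0.000179) and Socs7 at -0.29 (adjusted p = 0.0466), a call that ended under library size scaling (-0.11, adjusted p = 0.415), under upper quartile scaling (-0.24, adjusted p = 0.0867) and without YAP5SA replicate 1 or 2 or Ctrl replicate 3 or 4 (adjusted p 0.0733 to 0.136). Socs2, Socs3, Socs5, Socs6 and Cish were not called, with values from -0.20 to 0.30. Socs5 was called without Ctrl replicate 2 (-0.29, adjusted p = 0.00806) or by DESeq2 (-0.21, adjusted p = 0.0469), Socs2 without YAP5SA replicate 3 (0.43, adjusted p = 0.0495) or under library size scaling (0.47, adjusted p = 0.0434), and Cish under library size scaling (0.40, adjusted p = 0.0298). Socs1, the main brake on interferon gamma signalling, had 8 counts in YAP5SA and 6 in Ctrl.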

How the data were processed

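The authors deposited raw counts of reads per gene and library, with no normalization. The submitters' processing notes list cutadapt, HISAT2 2.0.1, HTSeq 0.6.1 and build mm9; neither the annotation nor the strand setting is given in the sources used here. Groups and replicate numbers come from the sample titles. Counts were filtered with filterByExpr (minimum count 10, minimum total 15), scaled by TMM and tested in R 4.3.3 with edgeR 4.0.16 (quasi-likelihood F test, two-sided, no covariate). Benjamini-Hochberg adjustment took in each of the 13812 genes that passed the filter, and calls were made at 0.05. CPM use TMM-scaled totals. The SE is the size of the log2 fold change over the square root of its F statistic. Floors are 3 counts, and floors and intervals cover counting error only. The procedure was also run on simulated data. There every gene had the same spread beyond counting error, and far fewer genes changed than were called here. Its error rate there need not hold for these libraries. Libraries of 1 group differed by more than sampling noise (chi-square per degree of freedom 4.69 to 34.9).

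Members and lists were chosen with earlier results of these data known. A few items that these rules select are not reported here. Genes named are, apart from those, all tested receptors, STATs and IRFs, the 12 highest and 12 lowest called members, up to 4 members per role with the smallest p, members not tested, and, of the other pathway genes, the 5 highest and 5 lowest called and the JAK and SOCS genes; any other named gene was picked with its values in view. The alternatives were DESeq2 1.42.0, voom from limma 3.58.1, scaling by RLE, by upper quartile or by library size, 2 other filters, a replicate block and leaving out each library in turn. Promoter windows are from RefSeq on GRCm38.p6 and were joined by symbol, not by coordinates.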

Additional observations from a re-analysis of the deposited data

Results flagged for a closer look

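In 17 of 166 groups of 4 libraries, 1 library stood apart from the rest by Dixon's 95% criterion, of which chance gives about 1 in 20. Among the STATs, Stat6 was at 104 CPM in Ctrl replicate 1 (others 132 to 136) and Stat5a at 4.17 CPM in Ctrl replicate 3 (others 3.10 to 3.14). Ifnar1 was at 41.0 CPM in Ctrl replicate 4 (others 44.3 to 44.5), and Jak2 at 75.9 CPM in YAP5SA replicate 3 (others 62.1 to 64.3). Among the effectors, Rsad2 was at 0.226 CPM in Ctrl replicate 1 (others 0) and Ifi30 at 87.7 CPM in Ctrl replicate 1. Bst2 was high in 1 library of each group, at 28.4 CPM in YAP5SA replicate 4 (others 22.6 to 23.4) and 9.53 CPM in Ctrl replicate 1 (others 5.47 to 6.13). Ifi27 was low in 1 library of each group, at 9.47 CPM in YAP5SA replicate 2 (others 16.5 to 17.5) and 0.391 CPM in Ctrl replicate 4 (others 1.64 to 1.84). Ifi47 was at 0.782 CPM in Ctrl replicate 4 (others 2.38 to 2.55).

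Of the IFITs, Ifit1 and Ifit3b were highest in YAP5SA replicate 2, at 6.40 CPM (others 2.27 to 2.88) and 2.91 CPM (others 0.821 to 1.14), and Ifit2 was lowest in YAP5SA replicate 3, at 15.5 CPM (others 20.5 to 20.8). In YAP5SA replicate 3, Gbp2 was at 0.799 CPM (others 0.363 to 0.410) and Ifitm10 at 2.34 CPM (others 0.772 to 0.936), while Gbp9 was at 4.77 CPM in YAP5SA replicate 1 (others 4.47 to 4.48). By library the flags numbered 1, 3, 4 and 1 in YAP5SA replicates 1 to 4 and 4, 0, 1 and 3 in Ctrl replicates 1 to 4.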

How the results depend on the processing

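Of 41 called members, 35 kept direction and call under every alternative that gave a value, and no result reversed; those that lost the call under at least 1 include Irf9, Stat5a, Usp18, Xaf1 and Ifi47. Library size scaling gave 4 receptors higher, 1 IRF lower, 2 IFITMs higher and 15 other pathway genes higher. Without a filter on low counts, 1 sensor was lower, 1 OAS higher, 1 IFIT lower, 4 IFITMs higher and 1 of Isg15 and Usp18 higher. Voom gave 2 IFITMs higher, DESeq2 gave 1 of Isg15 and Usp18 higher, and a filter at 1 CPM in at least 4 libraries gave 1 GTPase and 1 of Isg15 and Usp18 higher. In a window of 150 bases before the start, 14.1% of member promoters held a GAS match (4.77% of all genes) and 39.4% an ISRE match (1.85% of all genes). As this window lies within the full one, its shares can only be equal or lower. The filter at 1 CPM left 52 members tested, none of which changed its call, so its lower counts reflect members no longer tested. The cause of the other moves was not tested. Leaving out 1 library gave 24 to 29 members higher, 14 to 19 lower, 2 to 4 IRFs lower, 0 to 1 sensor lower, 0 to 1 OAS higher, 1 to 2 OAS lower, 0 to 1 IFIT lower, 1 to 3 IFITMs higher and 1 to 2 of Isg15 and Usp18 higher.

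With the replicate number as a block, 29 members were higher and 18 lower, with 1 sensor lower, 1 OAS higher, 1 IFIT lower, 2 IFITMs higher and 1 of Isg15 and Usp18 higher. Same-numbered libraries had correlations of their deviations from the group means of 0.0871, 0.0569, 0.107 and 0.337. Differently numbered libraries had -0.233 to 0.175. The labels do not say whether the numbers pair the samples, and the main test used no block.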
